A study of Homo sapiens with 2 samples.

Results

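The seed family of miR-130, miR-301 and miR-454 was examined in RNA held on resin from BT549 cells, as the rows of the read count table named miR-130a-3p, miR-130b-3p, miR-301a-3p, miR-301b-3p or miR-454-3p, which are the 3p guide strands of 5 hairpins. Of these 5 guides, 4 were in the table, which lists 407 miRNAs, and miR-301b-3p was not. BT549 is an established human breast cancer cell line with mesenchymal features. Both groups came from BT549 cells that overexpress the long non-coding RNA SNHG15 carrying MS2 hairpins, RNA loops that the MS2 coat protein (MCP) binds. The pulldown group was lysate held for 5 h on amylose resin coated with MCP fused to maltose binding protein (MBP), and the control was lysate held on amylose resin without that protein. SNHG15 overexpression and the MS2 tag were therefore shared by both groups, which differ in the MBP-MCP protein on the resin. There was 1 library per resin, so no difference below has a replicate check and none carries a p-value of its own. The question was which miRNAs associate with SNHG15, and binding to the tagged SNHG15 and binding to the MBP-MCP protein itself cannot be told apart in this design.

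A miRNA guides an Argonaute protein to RNAs that pair with its seed, bases 2 to 8, so miRNAs with one seed share most of their targets. The miR-130 family, as miR-130, miR-301 and miR-454 are called here, is known for repressing components of TGF-beta signalling. miR-130a-3p is known for promoting blood vessel growth through the homeobox genes GAX and HOXA5, miR-130b-3p for repressing TP53INP1 in liver cancer cells, and miR-301a-3p for raising NF-kB activity by repressing NKRF. Long non-coding RNAs that bind a miRNA through its seed may also bind the other miRNAs of that seed family.

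RefSeq (GRCh38.p14) gave the mature sequence for 4 of the 5 guides. It had no mature entry for miR-130a-3p, so the seed of that guide was not checked here. The 4 sequences are shown 5′ to 3′ with the seed in capitals, because the shared seed defines the family and the bases after it tell its members apart.
miR-454-3p: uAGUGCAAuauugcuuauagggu
miR-301a-3p: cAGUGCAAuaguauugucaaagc
miR-301b-3p: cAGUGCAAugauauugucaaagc
miR-130b-3p: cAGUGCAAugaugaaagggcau
All 4 carried the seed AGUGCAA, which 6 of the 2370 mature miRNA names in the RefSeq table carried, a count that leaves out miR-130a-3p. The other two, miR-3666 and miR-4295, were not in the count table. Among these 4 sequences miR-301a-3p and miR-301b-3p were the closest pair, with 21 of 23 bases identical position by position. How the authors divided reads between near-identical guides is not stated. The 3 measured guides with a sequence differed from one another at 10 to 12 of the compared bases. How near miR-130a-3p is to any of them was not compared, so these differences do not show that all measured guides are well separated.

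The hairpins lie in 3 places of GRCh38 (GENCODE 29). MIR301A (chromosome 17, 59151136 to 59151221) and MIR454 (chromosome 17, 59137758 to 59137872) are both intronic in SKA2, a kinetochore gene, on the same minus strand and 13.3 kilobases apart. MIR301B (chromosome 22, 21652981 to 21653058, intronic) and MIR130B (chromosome 22, 21653304 to 21653385, exonic) lie 245 bases apart in the non-coding gene AP000553.1 on the plus strand. MIR130A (chromosome 11, 57641198 to 57641286, plus strand) is intronic in the non-coding gene AP000662.1.

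The MBP-MCP library held 202560 listed miRNA reads and the bare resin library 111414. Counts were also expressed as RPM, reads scaled to 1000000 listed reads of a library, and intervals are exact 95% (Clopper-Pearson) intervals, which cover counting error only. The mesenchymal markers chosen for this line were all listed, 4 of 4, with 12645 reads in the MBP-MCP library and 7672 in the bare resin library. Most of these reads were miR-125b-5p, with 10378 on MBP-MCP resin and 6539 on bare resin, while miR-222-3p had 51 and 30. Of 6 epithelial markers only miR-200a-3p was listed, with 1 read in each library. Blood markers had 147 reads on MBP-MCP resin and 74 on bare resin over 3 listed of 5, with miR-451a and miR-150-5p not listed. Of these, the red cell marker miR-486-5p had 133 reads on MBP-MCP resin and 62 on bare resin, and the leukocyte marker miR-142-3p had 13 on MBP-MCP resin and 11 on bare resin. The muscle marker miR-1-3p had 9 reads on MBP-MCP resin and 1 on bare resin, with miR-133a-3p not listed. The liver marker miR-122-5p had 4 reads on MBP-MCP resin and 0 on bare resin, where a limit of 3 reads for a count of 0 is 26.9 RPM. Their part in the results was not tested.

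The family was a minor component of both libraries and was slightly less represented on the MBP-MCP resin. Its 4 measured guides summed to 209 reads on MBP-MCP resin, 0.103% of the library (0.0897% to 0.118%), against 147 reads on bare resin, 0.132% (0.111% to 0.155%). The summed RPM was 1.28-fold lower on the MBP-MCP resin (1.03 to 1.59), a log2 ratio of −0.35 (−0.67 to −0.04). This deficit was not resolved under some other scalings, nor on the fewer reads left without miR-130a-3p, the only member left out. The interval reached equality with TMM factors (ratio 0.895, 0.721 to 1.11), with DESeq2 size factors (0.948, 0.764 to 1.18), with totals that leave out the top 5 miRNAs (0.852, 0.687 to 1.06), and without miR-130a-3p (0.839, 0.625 to 1.13).

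miR-130a-3p was the most abundant guide of the family. It had 90 reads on MBP-MCP resin, or 444 RPM, against 69 reads on bare resin, or 619 RPM. Its RPM was 1.39-fold lower on the MBP-MCP resin (1.004 to 1.93), with a log2 ratio of −0.48 at a prior count of 0.5. The interval stopped just short of equality with total reads and included it under the same 3 other scalings. By read number it ranked 78 of 407 in the MBP-MCP library and 65 in the bare resin library.

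miR-454-3p, the second guide by reads, had 67 reads on MBP-MCP resin, or 331 RPM, against 45 on bare resin, or 404 RPM. Its ratio was 0.819 (0.553 to 1.22), and the libraries could not be told apart at this depth. miR-301a-3p, whose hairpin lies in the same gene, had 22 reads on MBP-MCP resin, or 109 RPM, against 18 on bare resin, or 162 RPM. Its ratio of 0.672 (0.344 to 1.33) was the lowest point estimate of the 4, on the fewest reads over both libraries. miR-130b-3p was the exception in direction, with 30 reads on MBP-MCP resin, or 148 RPM, against 15 on bare resin, or 135 RPM. Its ratio of 1.10 (0.574 to 2.20) included equality.

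**Figure D1:**
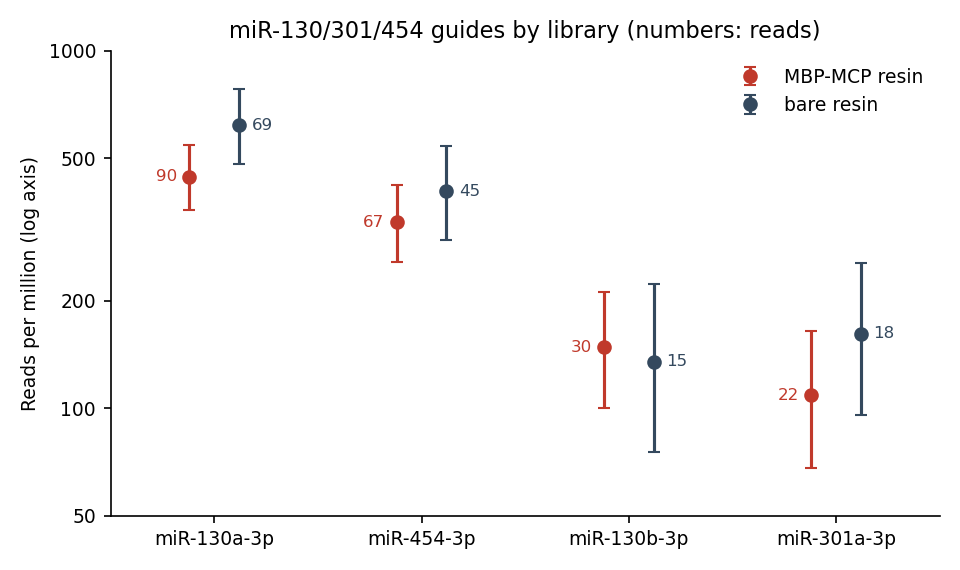
RPM of the 4 measured guides on MBP-MCP resin (red, left of each pair) and bare resin (dark blue, right), on a log axis. Points are single libraries, bars exact 95% counting intervals, and the printed numbers are reads; miR-130a-3p stands at 444 RPM on MBP-MCP resin and 619 RPM on bare resin, and the bars of every pair overlap.

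In log2 ratio, 3 of the 4 guides lay below 0, beside 60.2% of the 161 miRNAs that reached 20 reads in either library. The guides' log2 ratios ran from −0.56 to 0.13 with a median of −0.38, and the median over the 161 miRNAs was −0.16. With TMM factors the guides' median was −0.19 and that of the 161 miRNAs 0.04, and with DESeq2 size factors the guides' median was −0.11 and that of the 161 miRNAs 0.12. A scaling moves the log2 ratios of all miRNAs by nearly the same amount, so the gap of 0.22 to 0.23 between these medians is fixed by construction. The same 3 guides stayed below 0 and miR-130b-3p above it under all these scalings. Counted from the lowest log2 ratio among the 161, miR-301a-3p ranked 26, miR-130a-3p 34, miR-454-3p 61 and miR-130b-3p 120. Intervals lay wholly below equality for 1 of the 4 guides, miR-130a-3p, and for 23.6% of the 161 miRNAs. None of the guides reached 2-fold in either direction, which 5.59% of the 161 miRNAs did. The 161 include predicted miRNAs, and 133 of them are named, as the guides are. With total reads, 54.9% of the 133 lay below 0 and their median was −0.055. Intervals lay wholly below equality for 26 of the 133, while 2 were at least 2-fold higher on MBP-MCP resin and 1 at least 2-fold lower.

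The depth sets how far these ratios can be read. The upper bounds of miR-130a-3p, miR-454-3p and miR-301a-3p were 0.996, 1.22 and 1.33, so a 2-fold excess on MBP-MCP resin lay outside the counting interval of each. For miR-130b-3p the upper bound of 2.20 did not exclude it. A 2-fold deficit lay outside the intervals of miR-130a-3p (lower bound 0.518), miR-454-3p (0.553) and miR-130b-3p (0.574), but inside that of miR-301a-3p (0.344). In the authors' deposited table no guide is called, while 6.39% of its 407 miRNAs are, and the adjusted p-values there are 0.849 for miR-130a-3p, 0.920 for miR-130b-3p, 0.893 for miR-301a-3p and 1 for miR-454-3p.

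**Figure D2:**
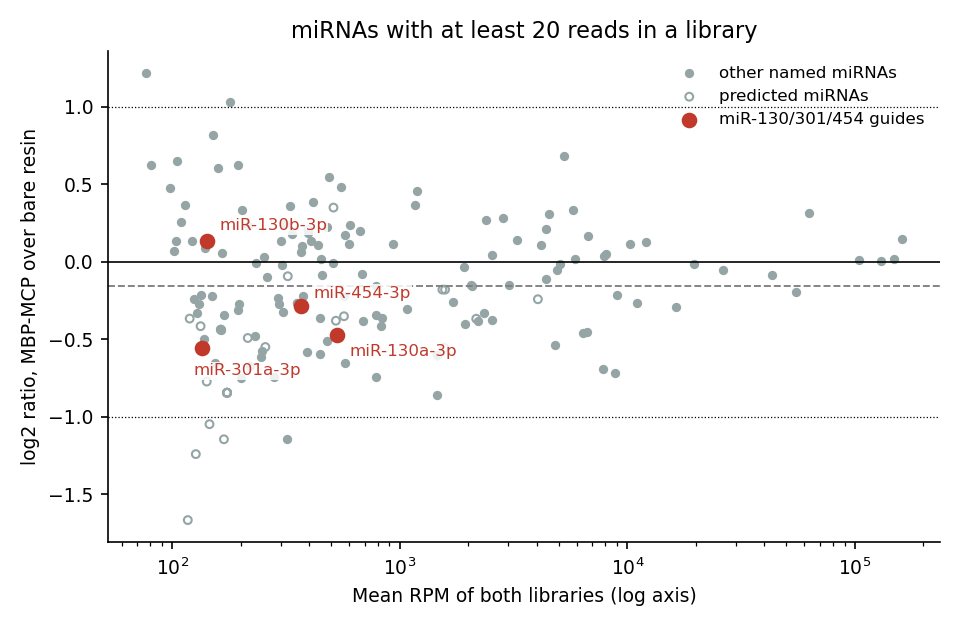
Log2 ratio of RPM, MBP-MCP over bare resin (prior count 0.5), against the mean RPM of both libraries on a log axis, for miRNAs that reached 20 reads in either library and had reads in both (159 of 161). The dashed line is the median of all 161 (−0.16) and dotted lines mark 2-fold; the 4 guides (red) lie between −0.56 and 0.13, inside both dotted lines.

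The order of the members was the same at the top of both libraries. miR-130a-3p made up 43.1% of the family's reads on MBP-MCP resin (36.3% to 50.1%) and 46.9% on bare resin (38.7% to 55.3%). miR-454-3p made up 32.1% on MBP-MCP resin (25.8% to 38.8%) and 30.6% on bare resin (23.3% to 38.7%). These neighbours in the order were close. The number of miR-130a-3p reads per miR-454-3p read was 1.34 on MBP-MCP resin (0.968 to 1.87), an interval that includes 1, and 1.53 on bare resin (1.04 to 2.28), one that does not.

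The lower places changed order without a resolved difference. miR-130b-3p ranked 3 of 4 on MBP-MCP resin, with 14.4% of the family's reads (9.90% to 19.9%), and 4 of 4 on bare resin with 10.2% (5.82% to 16.3%). miR-301a-3p ranked 4 of 4 on MBP-MCP resin with 10.5% (6.72% to 15.5%) and 3 of 4 on bare resin with 12.2% (7.42% to 18.7%). The ratio of miR-130b-3p to miR-301a-3p was 1.36 on MBP-MCP resin (0.761 to 2.48) and 0.833 on bare resin (0.391 to 1.75). Shares within the family need no scaling of the libraries. The odds of a family read being miR-130b-3p were 1.47 times as high on MBP-MCP resin as on bare resin (0.734 to 3.07), and for the other members these odds ratios were 0.855 for miR-130a-3p (0.547 to 1.34), 0.844 for miR-301a-3p (0.413 to 1.74) and 1.07 for miR-454-3p (0.662 to 1.73). All 4 intervals include 1, and no shift in the family's composition was detectable at this depth.

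The balance of the 2 guides from SKA2 did not differ detectably between the libraries. miR-454-3p had 3.05 reads per miR-301a-3p read on MBP-MCP resin (1.86 to 5.18) and 2.5 on bare resin (1.42 to 4.59), an odds ratio of 1.22 (0.548 to 2.68). The pair on chromosome 22 could not be compared, since miR-301b-3p was not listed and the lowest sum of reads of any listed miRNA was 2.

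The opposite strands of the same hairpins were rarer than the guides, and the miR-130b and miR-301a arms lay on opposite sides of equality. Of the 5p arms 3 of 5 were listed, all below 20 reads, and their sequences are shown because each pairs with its guide inside the hairpin; capitals mark the complement of the family seed, UUGCACU, where a search found it.
miR-130b-5p: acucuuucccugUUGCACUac
miR-301a-5p: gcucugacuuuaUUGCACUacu
miR-454-5p: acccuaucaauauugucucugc
The complete 7-base complement of the seed was present in miR-130b-5p and miR-301a-5p and not in miR-454-5p. miR-301a-5p had 12 reads on MBP-MCP resin against 1 on bare resin, an RPM ratio of 6.60 (0.977 to 282). miR-130b-5p had 3 reads on MBP-MCP resin against 9 on bare resin, a ratio of 0.183 (0.0319 to 0.735). miR-454-5p had 6 reads on MBP-MCP resin against 3 on bare resin, a ratio of 1.10 (0.235 to 6.80). In the authors' deposited table miR-301a-5p is called higher (p = 0.0443, adjusted p = 0.475) and miR-130b-5p lower (p = 0.0268, adjusted p = 0.389).

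Read against its own guide, which removes the scaling of the libraries, the 5p arm of miR-301a made up 12 of 34 hairpin reads on MBP-MCP resin, 35.3% (19.7% to 53.5%), against 1 of 19 on bare resin, 5.26% (0.133% to 26.0%). The odds ratio was 9.49 (1.19 to 443). For miR-130b the 5p arm made up 3 of 33 hairpin reads on MBP-MCP resin, 9.09% (1.92% to 24.3%), against 9 of 24 on bare resin, 37.5% (18.8% to 59.4%), an odds ratio of 0.172 (0.0262 to 0.822). For miR-454 it made up 6 of 73 reads on MBP-MCP resin, 8.22% (3.08% to 17.0%), and 3 of 48 on bare resin, 6.25% (1.31% to 17.2%), an odds ratio of 1.34 (0.269 to 8.70). The 5p share thus differed between the resins by more than counting error in 2 of the 3 hairpins compared, higher on MBP-MCP resin for miR-301a and lower for miR-130b. The same odds ratio was formed for 76 hairpins, those with both arms listed under one name and reads in each library. Its interval excluded 1 in 11.8% of the 76, with the 5p share higher on MBP-MCP resin in 5 and lower in 4. The 2 intervals of the family are not adjusted for the number compared and rest on 1 to 12 reads per 5p arm. Both hairpins were named in the authors' calls before these odds ratios were formed, so the ratios are no independent support for those calls.

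**Figure D3:**
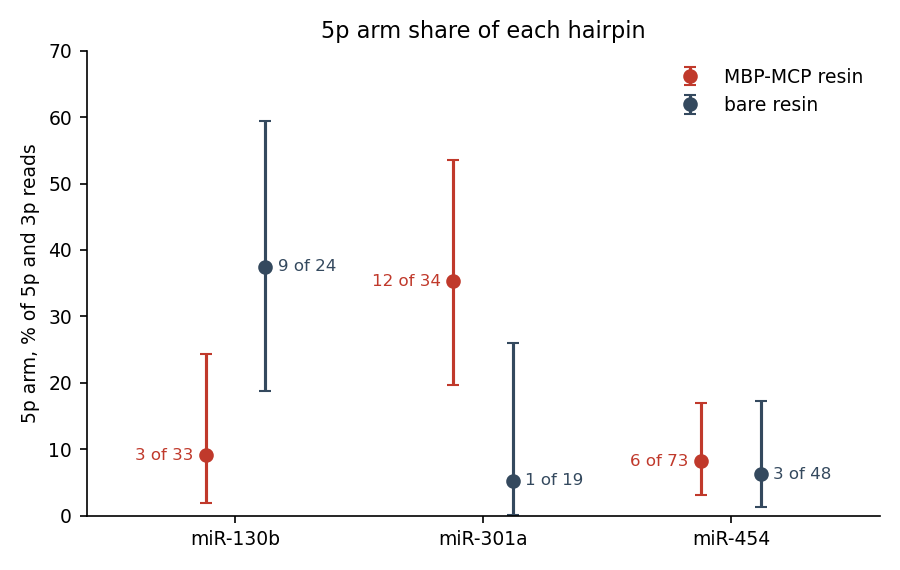
Share of the 5p arm among the 5p and 3p reads of a hairpin, in percent, on MBP-MCP resin (red, left of each pair) and bare resin (dark blue, right), with exact 95% intervals and the reads behind each share. The share for miR-130b is 9.09% on MBP-MCP resin and 37.5% on bare resin, and that for miR-301a 35.3% on MBP-MCP resin and 5.26% on bare resin.

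The 7-base complement of the seed was not found in the annotated SNHG15 transcripts. This site, TTGCACT on the RNA's own strand, was searched in the 10 SNHG15 transcripts of GENCODE 29 (chromosome 7, 44983023 to 44986961, minus strand). It had 0 matches in the longest, of 3116 bases, and 0 in the other transcripts, and neither TGCACT nor TTGCAC, its 6-base parts, occurred in any. Of GENCODE 29 transcripts of 2800 to 3400 bases 18.5% hold TTGCACT and 58.2% hold TGCACT, and of those of 900 to 1100 bases 5.39% and 23.5%. Which isoform the tagged construct holds was not stated in the labels. Of the 119 named miRNAs that reached 20 reads and have a RefSeq sequence, 15 had a 7-base match in that longest transcript. These 15 had a median log2 ratio of −0.21 and the remaining 104 a median of 0.01, given as a description.

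miRNAs whose seeds overlap that of the family by 6 bases were compared next, shown with their own seeds in capitals. The seed of miR-148 and miR-152, CAGUGCA, shares AGUGCA with that of the family, and the seed of miR-19, GUGCAAA, shares GUGCAA.
miR-148a-3p: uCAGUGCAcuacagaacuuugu
miR-148b-3p: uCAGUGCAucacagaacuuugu
miR-152-3p: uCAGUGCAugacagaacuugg
miR-19a-3p: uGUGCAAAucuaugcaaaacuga
miR-19b-3p: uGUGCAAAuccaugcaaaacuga
miR-148a-3p, miR-148b-3p and miR-152-3p, known repressors of DNA methyltransferases, together had 546 reads on MBP-MCP resin against 413 on bare resin, 1.38-fold lower on MBP-MCP resin (1.21 to 1.57). The most abundant of them, miR-148b-3p, had 422 reads on MBP-MCP resin against 292 on bare resin. miR-152-3p had 119 reads on MBP-MCP resin against 110 on bare resin, and miR-148a-3p 5 on MBP-MCP resin against 11 on bare resin. The miR-19 pair, members of the miR-17-92 cluster, had 94 reads on MBP-MCP resin against 56 on bare resin, a ratio of 0.923 (0.656 to 1.31). Free of library scaling, the odds ratio of miR-130 family reads to miR-148 and miR-152 reads between the resins was 1.08 (0.834 to 1.39), and that to miR-19 reads 0.847 (0.560 to 1.28). Both intervals include 1, so a difference between the miR-130 family and either group of seed relatives was not detectable at this depth. Neither TGCACTG, the 7-base site of miR-148 and miR-152, nor TTTGCAC, that of miR-19, occurs in the 10 SNHG15 transcripts. The first 6 bases of the miR-19 site occur in 8 of them and its last 6 bases in 0. The last 6 bases of the miR-148 and miR-152 site occur in 2 and its first 6 bases in 0. The transcripts are isoforms of the same gene and may share a site, so they are not separate occurrences. How many other transcripts of like length hold these 6-base parts was not counted.

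**Figure D4:**
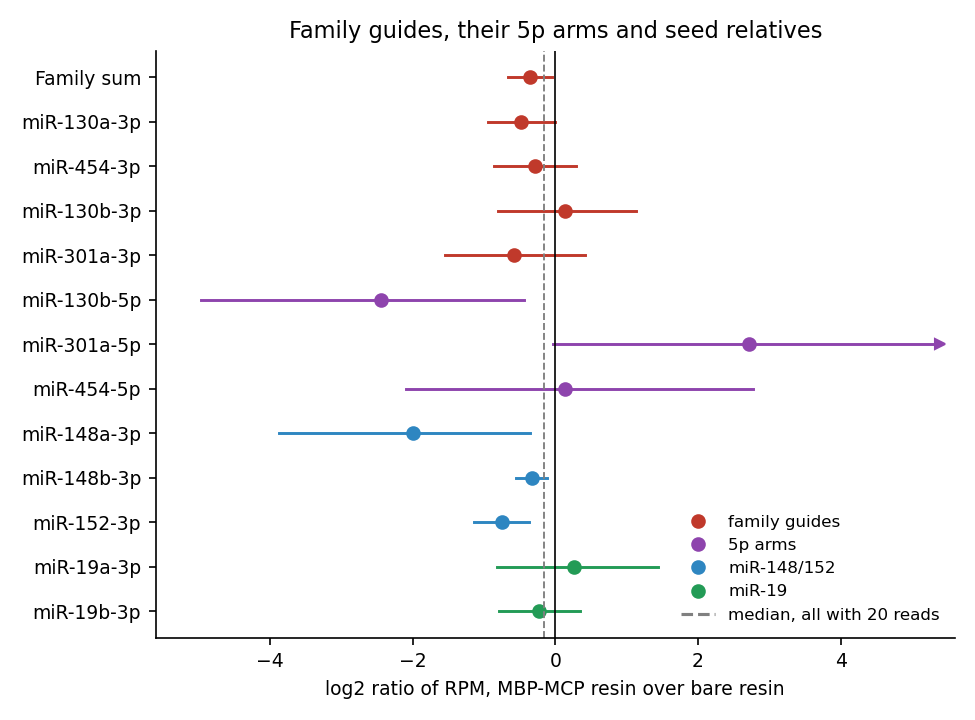
Log2 ratio of RPM, MBP-MCP resin over bare resin, without a prior count, for the family sum, its 4 guides, their 5p arms, and the miR-148, miR-152 and miR-19 relatives, with exact 95% counting intervals (an arrow marks an interval that runs on). The solid line is equality and the dashed line the median of the 161 miRNAs; the family sum lies at −0.35, and the 5p arms of miR-130b and miR-301a lie on opposite sides.

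The 3 named miRNAs nearest to each guide were found by distance in log2 RPM over the 2 libraries. For miR-454-3p these were miR-574-3p (68 reads on MBP-MCP resin, 46 on bare resin), miR-19b-3p (70 on MBP-MCP resin, 45 on bare resin) and miR-335-5p (65 on MBP-MCP resin, 43 on bare resin), at distances of 0.038 to 0.079. For miR-130b-3p they were miR-590-3p (29 on MBP-MCP resin, 15 on bare resin), miR-421 and miR-505-5p, for miR-301a-3p miR-100-3p (23 on MBP-MCP resin, 18 on bare resin), miR-93-3p and miR-324-5p, and for miR-130a-3p miR-143-3p (90 on MBP-MCP resin, 78 on bare resin), miR-660-5p and miR-99b-3p. With 2 libraries such likeness is a matter of level and ratio alone.

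Other miRNAs known to repress TGFBR2, the gene of a TGF-beta receptor, were compared last. Of 10 listed repressors 6 were measured, 4 with at least 20 reads, and 0 of the 4 reached 2-fold. These 4 had log2 ratios of −0.67 to 0.12 with a median of −0.05, beside −0.16 for all 161 miRNAs. The most abundant was miR-21-5p, a widely expressed oncogenic miRNA, with 8475 reads on MBP-MCP resin against 4937 on bare resin (ratio 0.944, 0.912 to 0.978). miR-93-5p had 3953 reads on MBP-MCP resin against 2195 on bare resin (0.991, 0.940 to 1.04), and miR-20a-5p had 197 reads on MBP-MCP resin against 100 on bare resin (1.08, 0.848 to 1.39). The lowest of the 4 was miR-17-5p, with 34 reads on MBP-MCP resin against 30 on bare resin (0.623, 0.370 to 1.05). Below 20 reads, miR-204-5p had 2 reads on MBP-MCP resin against 7 on bare resin (0.157, 0.0159 to 0.825), and miR-106b-5p 15 reads on MBP-MCP resin against 5 on bare resin (1.65, 0.570 to 5.80).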

How the data were processed

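Small RNA held on MBP-MCP amylose resin or on bare amylose resin was sequenced, 1 library each, grouped by the treatment given in the labels. Per the labels' protocols, RNA was extracted with a mirVana kit and libraries were made with a QIAseq miRNA kit. The only build named per the submitters' processing notes was GRCh38; no aligner, miRNA release or counting of molecular identifiers was given there or in the labels. The authors deposited raw read counts of 407 miRNAs, 50 of them numbered predictions, with 202560 and 111414 reads in the MBP-MCP and bare resin libraries. The deposited RPM values, headed Tpm, have no length term and rest on totals of 202630 and 111453 reads, 70 and 39 above the listed counts. The deposited log2 fold changes are ratios of those RPM values, and the deposited p-values come with no stated dispersion per the file headers. There were 0 columns of other samples, and the authors' separate lists of called miRNAs, which repeat rows of the table, were not used.

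From the counts, RPM was computed on listed reads, ratios with the exact conditional binomial 95% interval, and log2 ratios of single miRNAs with a prior of 0.5 reads in proportion to library size; sums have no prior. Odds ratios are conditional maximum likelihood estimates with exact intervals (scipy 1.17.1). With 1 library per group the count test planned for replicated data could not be run, and called means at least 2-fold with at least 20 reads in a library, a rule applied to 161 miRNAs. Alternatives were TMM factors (edgeR 4.0.16; 0.935 for MBP-MCP, 1.07 for bare resin), DESeq2 1.42.0 size factors (1.22 and 0.816), totals without the 5 most abundant or without predicted miRNAs, the authors' totals (added after seeing the data), a prior count of 5, other minimums and folds, and other member sets. Named miRNAs were the guides, their 5p arms, same-seed and overlapping-seed miRNAs, the 3 nearest to each guide and the 3 most abundant of a list of TGFBR2 repressors, whose other measured members were added after their values were seen; another target list is not reported here. The members, lists and tests were chosen with earlier results of these data known. Intervals and the rule of size were run on simulated counts drawn with counting error only, which do not cover the error between libraries.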

Additional observations from a re-analysis of the deposited data

How the results depend on the processing

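The log2 ratio of the family's summed reads, −0.35 with total reads, stayed below 0 under every alternative run, but its interval reached 0 with TMM factors (−0.16), DESeq2 size factors (−0.077), totals that leave out the top 5 miRNAs (−0.23) and without miR-130a-3p (−0.25). These scalings raised the median of the 161 miRNAs by 0.19, 0.28 and 0.12. It kept its side with totals of named miRNAs (−0.36), the authors' totals (−0.35, added after seeing the data) and the 5p arms added (−0.34). The count of guides past 2-fold stayed at 0 at 1.5-fold and under both other scalings. It was also 0 with no read minimum and with 50 reads, but these settings could not raise it. Every guide already met the read minimum, and a higher minimum can only remove guides. The count of seed matches stayed at 0 with 6 bases and in all 10 transcripts. Over 42 alternatives for the 7 single miRNAs (4 guides, 3 arms), 0 changed sign. The prior count of 5 could not change a sign, since it adds the same RPM to both libraries. Totals of named miRNAs and the authors' totals shifted the median of the 161 miRNAs by only −0.0054 and 6.4e-06. In 3 alternatives the interval of miR-130a-3p came to include equality, and in 3 that of miR-301a-5p came to lie above it (TMM, DESeq2 and totals without the 5 most abundant). A prior count of 5 drew miR-301a-5p to a log2 ratio of 1.16, against 2.36, and miR-130b-5p to −1.27, against −2.22. Leaving miR-130a-3p out raised the shares of the other guides by construction. No paired analysis was possible because each resin has 1 library. Each guide had 15 to 90 reads per library, which limits the precision, and the error between replicates is unknown.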
